A study of Mus musculus with 10 samples.

Results

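The integrated stress response was followed through 8 of its genes in sorted mouse embryonic stem (ES) cells: Atf4, Ddit3, Trib3, Chac1, Asns, Sesn2, Ppp1r15a and Ddit4. They were chosen by symbol as ATF4 and integrated stress response genes and each had 1 row among the 32361 rows of the expression table. All 8 reached 1 FPKM (fragments per kilobase of transcript, scaled to mapped fragments) in at least 1 fraction and were therefore among the 13595 rows compared. The cells were E14Tg2a.4 ES cells of 2 reporter lines. One line carried a double knock-in reporter of Esrrb and Tbx3, transcription factor genes of naive pluripotency, and gave double-positive cells (Esrrb-positive/Tbx3-positive), single-positive cells (Esrrb-positive/Tbx3-negative) and double-negative cells (Esrrb-negative/Tbx3-negative). The other carried a piggyBac reporter with a fragment of the Zscan4c promoter, so sorting followed the activity of that fragment and not the endogenous gene, and gave Zscan4-positive and Zscan4-negative cells. The labels name no treatment or stress agent for any fraction. Each fraction had 2 libraries from different days, 10 in all, but the table holds 1 merged value per gene and fraction. No difference below therefore has an SD, a p-value or a replicate check, and the read depth behind each value is unknown.

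In the integrated stress response, kinases that sense amino acid shortage, unfolded protein, double-stranded RNA or haem loss phosphorylate the translation factor eIF2alpha, which slows most protein synthesis. The mRNA of the transcription factor ATF4 is then translated better, through upstream open reading frames in its leader, so ATF4 protein is set largely by translation and the Atf4 mRNA level is only part of its control. ATF4, with C/EBP-family partners, switches on genes for amino acid supply, further regulators such as CHOP (the product of Ddit3), and feedback genes such as Ppp1r15a (GADD34), whose product brings a phosphatase to eIF2alpha. Several of the genes also answer to other inputs: Sesn2 to p53 and NRF2, and Ddit4 to hypoxia and glucocorticoids.

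The promoters of 5 of the genes are shown because they carry, or lack, the letters that ATF4 and its relatives are known to bind. RefSeq windows (GRCm38.p6, the assembly of mm10) running from 250 bases before to 50 bases after the start were found for all 8 genes and searched on both strands for TGATGNAA, the core of the C/EBP-ATF response element, and for TGACGTCA, the cAMP response element, which do not overlap in any of these windows. TGATGNAA was in 3 of 8 windows (Asns, Chac1 and Trib3), against 3.97% of all 32851 windows, and TGACGTCA in 1 of 8 (Ppp1r15a), against 1.79%. The lines give the 250 bases before the start, 5′ to 3′ on the strand of the gene, with each match in capitals. Asns lies at chr6:7693210-7693459 (minus strand), Chac1 at chr2:119350992-119351241 (plus), Ppp1r15a at chr7:45526269-45526518 (minus) and Ddit4 at chr10:59951771-59952020 (minus). The Trib3 match lies after the start, at positions 15 to 22, and only 26 bases around it are given (chr2:152344030-152344055, minus).
Asns: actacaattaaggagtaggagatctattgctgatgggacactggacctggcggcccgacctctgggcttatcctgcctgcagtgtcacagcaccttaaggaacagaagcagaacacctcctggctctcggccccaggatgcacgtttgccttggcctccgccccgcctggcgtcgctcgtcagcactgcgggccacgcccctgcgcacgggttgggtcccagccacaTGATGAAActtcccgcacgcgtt
Chac1: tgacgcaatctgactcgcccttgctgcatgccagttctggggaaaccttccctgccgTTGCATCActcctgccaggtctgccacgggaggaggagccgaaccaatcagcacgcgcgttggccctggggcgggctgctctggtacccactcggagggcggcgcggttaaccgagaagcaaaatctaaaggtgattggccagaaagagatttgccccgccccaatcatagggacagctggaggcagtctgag
Trib3: agctcaggtTTACATCAgccgggcgg
Ppp1r15a: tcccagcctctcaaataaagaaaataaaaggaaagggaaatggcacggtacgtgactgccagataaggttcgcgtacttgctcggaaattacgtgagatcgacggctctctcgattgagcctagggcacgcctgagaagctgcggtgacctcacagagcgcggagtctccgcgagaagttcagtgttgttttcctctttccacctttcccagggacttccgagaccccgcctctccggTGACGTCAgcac
Ddit4: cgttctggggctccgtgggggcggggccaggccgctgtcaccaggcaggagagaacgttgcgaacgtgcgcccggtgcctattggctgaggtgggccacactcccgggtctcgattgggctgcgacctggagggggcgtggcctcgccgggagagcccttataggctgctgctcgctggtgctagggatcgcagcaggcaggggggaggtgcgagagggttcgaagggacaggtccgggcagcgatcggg
The matches lie at positions -23 to -16 in Asns, -193 to -186 in Chac1 and -12 to -5 in Ppp1r15a, counted back from the start, and those in Chac1 and Trib3 read TGATGNAA on the opposite strand. Neither motif was found in the windows of Ddit4, Atf4, Ddit3 or Sesn2, which says only that these letters are not in these windows.

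FPKM totals per fraction ran from 507495 to 552117. ES cell genes were high in every fraction: the 8 listed, among them Pou5f1, Sox2 and Nanog, summed to between 4449 and 6909 FPKM. Of these Zfp42, a naive marker gene, was at 601 FPKM in double-positive, 428 in single-positive and 101 in double-negative cells. Nanog was at 388, 278 and 79.8 FPKM and Sox2 at 437, 347 and 209 FPKM in these fractions. Tdgf1 had another order, at 300, 251 and 347 FPKM. Nanog was at 522 FPKM in Zscan4-positive against 257 in Zscan4-negative cells, and Utf1 at 266 against 501 FPKM. Of the 8 ES cell genes, 3 had a higher level and 5 a lower one in Zscan4-positive than in Zscan4-negative cells. Genes listed as markers of other cell types were mostly higher in double-negative and single-positive than in double-positive cells, though some were low throughout. The 13 listed fibroblast genes summed to 368 FPKM in double-positive, 1848 in single-positive and 2430 in double-negative cells, and to 330 in Zscan4-positive and 309 in Zscan4-negative cells. The defining collagen gene Col1a1 was at 6.32 FPKM in double-positive, 348 in single-positive and 477 in double-negative cells; Col1a2, Bgn and Col6a1 ran from 2.44 to 3.95, 133 to 225 and 188 to 318 FPKM in these fractions. Lum was listed at 0 in both Zscan4 fractions and at no more than 0.144 FPKM elsewhere, and Dcn was at no more than 0.217 FPKM. Fn1, at 231, 310 and 308 FPKM in double-positive, single-positive and double-negative cells, differed by less than 2-fold. The 12 T-lineage genes with a row summed to 38.2, 422 and 594 FPKM in double-positive, single-positive and double-negative cells, and to 26.2 and 27.8 FPKM in Zscan4-positive and Zscan4-negative cells, with none listed at 0. Gzma, a granule protease gene, was at 2.78, 151 and 223 FPKM in the 3 fractions of the Esrrb/Tbx3 line, and Cd3g, Cd3d, Ptprc and Cd27 were likewise lowest in double-positive and highest in double-negative cells. Cd4 stayed under 1 FPKM in every fraction, and Cd8a and Cd8b1 reached at most 1.87 and 1.44 FPKM. Cd2 was at 3.36, 5.15 and 4.49 FPKM in double-positive, single-positive and double-negative cells. Thy1, on both fibroblasts and T cells, was the 1 gene of these lists past 2-fold in the Zscan4 comparison, at 8.37 FPKM in Zscan4-positive against 2.12 in Zscan4-negative cells. A total of 501 rows were at no more than 0.1 of their double-negative level in the double-positive and both Zscan4 fractions, and are called the shared profile here. They made up 1.11% of the FPKM total in single-positive and 1.66% in double-negative cells, and none of the 8 genes was among them. Their part in the differences that involve single-positive or double-negative cells was not tested.

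Atf4 was the most abundant of the 8 genes in every fraction, and its level varied least (chromosome 15, 80255184 to 80257541, plus strand; positions of the 8 genes are those of GENCODE M21, and all are protein-coding). It was at 239 FPKM in double-positive, 215 in single-positive and 207 in double-negative cells, and at 159.8 FPKM in Zscan4-positive and 169.6 in Zscan4-negative cells. The range over the 5 fractions was 0.58 on the log2(FPKM + 1) scale, and the order followed the reporter line: all 3 fractions of the Esrrb/Tbx3 line lay above both of the Zscan4 line. In bulk samples such as these, fewer cells with a transcript and less RNA per cell cannot be told apart. Ddit3 (chromosome 10, 127290774 to 127296288, plus strand), which encodes CHOP, a bZIP factor that promotes cell death when stress persists, was the least abundant in every fraction. It was at 8.68 FPKM in double-positive, 11.9 in single-positive and 15.4 in double-negative cells, and at 9.05 FPKM in Zscan4-positive and 8.11 in Zscan4-negative cells. Its double-negative level stood above the rest, and the double-positive and both Zscan4 levels lay within 1 FPKM of each other. The 3′ end of Ddit3 overlaps that of the antisense gene Mars over 68 bases, and the table gives both rows the same span. The library kit is not stated to keep strand, so reads in the overlap cannot be told apart. Mars itself, at 108 to 156 FPKM, had its highest level in double-positive cells.

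The feedback genes differed from each other. Trib3 (chromosome 2, 152337422 to 152344032, minus strand) encodes a pseudokinase that binds ATF4 and CHOP and holds back their activity. It was at 22.5 FPKM in double-positive, 19.1 in single-positive and 20.2 in double-negative cells, and at 11.8 FPKM in Zscan4-positive and 15.98 in Zscan4-negative cells, so that, as for Atf4, both Zscan4 fractions lay below the other 3. Ppp1r15a (chromosome 7, 45522916 to 45526268, minus strand) was at 24.0 FPKM in double-positive, 18.2 in single-positive and 18.8 in double-negative cells, and at 37.4 FPKM in Zscan4-positive and 18.9 in Zscan4-negative cells. Zscan4-positive cells were the ones that stood apart. Tulp2 overlaps Ppp1r15a on the other strand over 717 bases, and Tulp2 was at 2.03 FPKM in Zscan4-positive and 1.65 in Zscan4-negative cells. As for Ddit3, reads in the overlap cannot be told apart.

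The effectors Chac1 and Asns had different orders. Chac1 (chromosome 2, 119351229 to 119354381, plus strand) encodes an enzyme that breaks down glutathione. It was at 14.8 FPKM in double-positive, 13.6 in single-positive and 22.7 in double-negative cells, and at 9.12 FPKM in Zscan4-positive and 13.3 in Zscan4-negative cells. Double-negative cells were highest, Zscan4-positive cells lowest, and the other 3 fractions lay close together. Asns (chromosome 6, 7675169 to 7693254, minus strand), which encodes asparagine synthetase, was at 217 FPKM in double-positive, 158 in single-positive and 146 in double-negative cells, and at 129.6 FPKM in Zscan4-positive and 99.9 in Zscan4-negative cells. As with Atf4 and Trib3, the 3 fractions of the Esrrb/Tbx3 line were above both Zscan4 fractions. The 2 lines were not compared by the design, so line and sorted state cannot be told apart in this order.

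The remaining 2 genes, Sesn2 and Ddit4, both encode inhibitors of the growth kinase complex mTORC1, and they ran in opposite directions along the Esrrb/Tbx3 series. Sesn2 (chromosome 4, 132492032 to 132510501, minus strand) encodes a sestrin, which senses leucine. It was at 88.4 FPKM in double-positive, 66.3 in single-positive and 48.0 in double-negative cells, and at 96.5 FPKM in Zscan4-positive and 64.9 in Zscan4-negative cells. Ddit4 (chromosome 10, 59949669 to 59951834, minus strand) encodes REDD1, which acts on mTORC1 through the TSC complex. It was at 49.4 FPKM in double-positive, 59.0 in single-positive and 119 in double-negative cells, and at 112 FPKM in Zscan4-positive and 41.7 in Zscan4-negative cells. Ddit4 thus had a high level in 2 fractions, double-negative and Zscan4-positive, and its range over the fractions, 1.49 (log2), was the widest of the 8 genes.

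**Figure D1:**
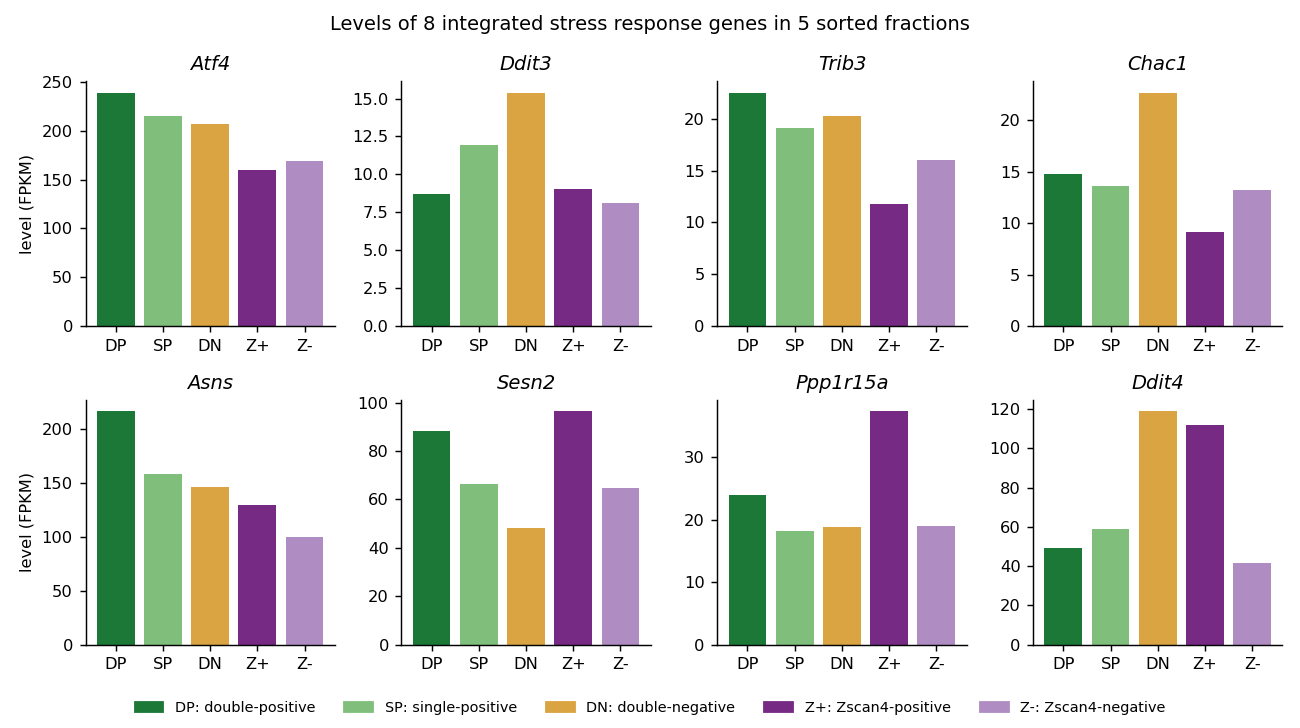
Levels of the 8 genes (y axis, FPKM, each panel with its own scale from 0) in the 5 sorted fractions (x axis); each bar is the 1 merged value of a fraction, so there are no error bars. Ddit4 stands high in double-negative (119 FPKM) and Zscan4-positive cells (112 FPKM), and Ppp1r15a in Zscan4-positive cells (37.4 FPKM).

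Zscan4-positive were compared with Zscan4-negative cells to ask what accompanies activity of the Zscan4c promoter fragment, known to be on in few ES cells at a time, together with genes of the early embryo. Differences are given as log2(FPKM + 1) in the first-named fraction minus the second, a scale that understates those of low genes. A gene is called higher or lower at 2-fold, a difference of at least 1. Ddit4 was the 1 gene of 8 called higher, against 3.46% of all rows, and none was called lower, against 0.875%. Its level was 112 FPKM in Zscan4-positive against 41.7 in Zscan4-negative cells, a difference of 1.40, which 2.02% of rows reached. Ppp1r15a, at 37.4 against 18.9 FPKM, differed by 0.94, just inside the 2-fold limit. Sesn2, at 96.5 against 64.9 FPKM, differed by 0.57 and Asns, at 129.6 against 99.9 FPKM, by 0.37. Going the other way, Chac1 was at 9.12 against 13.3 FPKM, a difference of -0.49, and Trib3 at 11.8 against 15.98 FPKM, a difference of -0.41. Atf4 (-0.09) and Ddit3 (0.14) were close to even. With a 1.5-fold limit 2 of 8 were higher, Ddit4 and Ppp1r15a, against 7.61% of rows, and none lower, against 3.59%. The median of the 8 was 0.26, with 5 above 0 and 3 below, beside -0.01 for all rows.

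Double-positive were also set directly against double-negative cells, which differ in both reporters. Here Ddit4 was the 1 gene of 8 called lower, against 12.2% of all rows, and none was called higher, against 3.81%. Ddit4 was at 49.4 FPKM in double-positive against 119 in double-negative cells, a difference of -1.25, and 8.79% of rows were at least as low. Ddit3, at 8.68 against 15.4 FPKM, differed by -0.76 and Chac1, at 14.8 against 22.7 FPKM, by -0.59. On the other side Sesn2, at 88.4 against 48.0 FPKM, differed by 0.87, and Asns, at 217 against 146 FPKM, by 0.56. Ppp1r15a (0.34), Atf4 (0.21) and Trib3 (0.15) differed less. With a 1.5-fold limit 3 of 8 were lower (Ddit4, Ddit3 and Chac1), against 20.5% of rows, and 1 of 8 was higher (Sesn2), against 9.92%. The median was 0.18, beside -0.02 for all rows, and it came to 0.035 when columns were scaled to equal totals outside the 501 rows of the shared profile. That scaling left Ddit4 lower (-1.39).

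Single-positive were compared with double-negative cells for what accompanies Esrrb while the Tbx3 reporter is off. Of the 8 genes none was called higher, against 1.82% of rows, and none lower, against 1.43%. Ddit4, at 59.0 FPKM in single-positive against 119 in double-negative cells, differed by -0.998, just short of the limit. It passed with a pseudocount of 0.1 FPKM (-1.01) and under each of the 3 other scalings (-1.04 to -1.06). Chac1, at 13.6 against 22.7 FPKM, differed by -0.70 and Ddit3, at 11.9 against 15.4 FPKM, by -0.34. Sesn2, at 66.3 against 48.0 FPKM, differed by 0.46. Asns (0.11), Atf4 (0.05), Ppp1r15a (-0.04) and Trib3 (-0.08) were nearly even, and that of Atf4 was -0.007 under median-ratio scaling. With a 1.5-fold limit 2 of 8 were lower, Ddit4 and Chac1, against 5.49% of rows, and none higher, against 5.10%. The median was -0.06, beside -0.02 for all rows.

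Double-positive were compared with single-positive cells for what accompanies Tbx3 once Esrrb is on. None of the 8 genes was called higher, against 0.346% of rows, and none lower, against 6.94%. No member reached 1.5-fold either, where 1.68% of rows were higher and 12.4% lower. The largest positive differences were those of Asns, at 217 FPKM in double-positive against 158 in single-positive cells (0.45), Sesn2, at 88.4 against 66.3 FPKM (0.41), and Ppp1r15a, at 24.0 against 18.2 FPKM (0.38). Trib3 (0.23), Atf4 (0.15) and Chac1 (0.11) were smaller. Ddit3, at 8.68 against 11.9 FPKM, differed by -0.42 and Ddit4, at 49.4 against 59.0 FPKM, by -0.25. The median of the 8 was 0.19, beside 0.01 for all rows. The 3 Esrrb/Tbx3 comparisons share fractions and are not independent of each other.

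**Figure D2:**
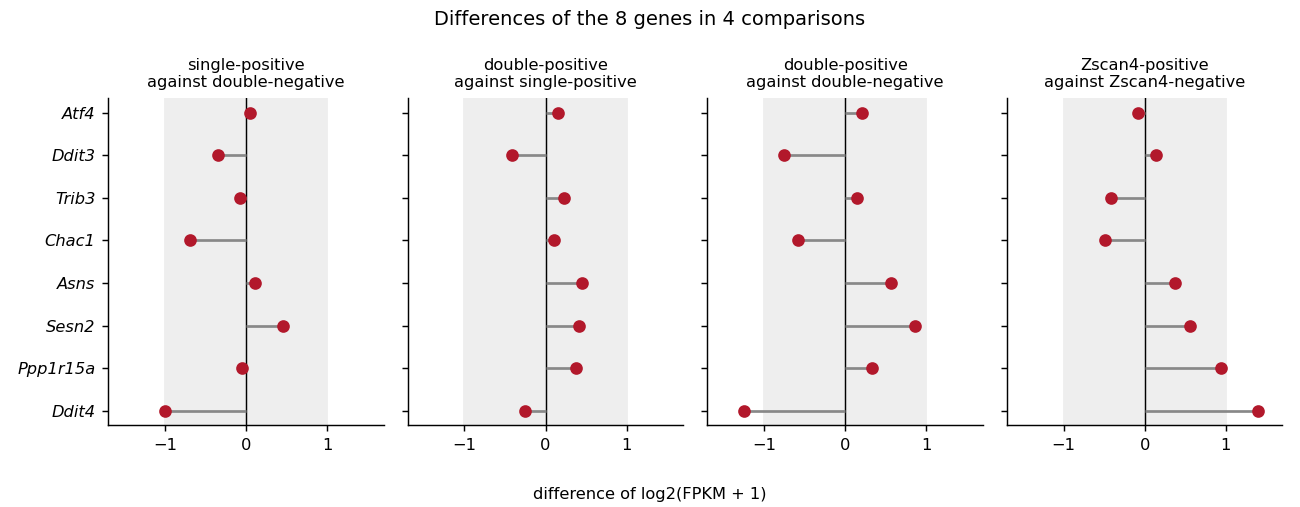
Difference of log2(FPKM + 1) (x axis) of each of the 8 genes (y axis) in the 4 comparisons, first-named fraction minus second; the grey band spans differences under 2-fold. Ddit4 is outside the band at -1.25 for double-positive against double-negative and at 1.40 for Zscan4-positive against Zscan4-negative cells, and lies at its edge (-0.998) for single-positive against double-negative cells.

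Ddit4, Ddit3 and Chac1, whose levels were lowest relative to double-negative cells, were set beside the shared profile as a description. For each, the part of the double-negative excess over double-positive cells that was also present in single-positive cells was computed from FPKM. For the 501 rows of the shared profile this share had a median of 0.689, and its middle 95% ran from 0.452 to 0.868. It was 0.486 for Ddit3, within that range. It was 0.138 for Ddit4 and -0.144 for Chac1, both below it. The same formula gave 0.761 for Atf4, 0.833 for Asns and 0.548 for Sesn2, also within the range. Yet these genes were lowest in double-negative cells among the fractions of this line. Trib3 (1.49) and Ppp1r15a (1.11) lay above the range. A value within the range therefore does not by itself tie a gene to the shared profile. What part the shared profile has in the differences of Ddit4, Ddit3 and Chac1 was not tested.

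Among the sensors, 3 of 4 listed eIF2alpha kinase genes had a row, and none reached 2-fold in any of the 4 comparisons. Eif2ak3, which encodes the endoplasmic reticulum kinase PERK, was at 14.01 FPKM in Zscan4-positive against 8.81 in Zscan4-negative cells, a difference of 0.61, and differed by -0.26 between double-positive and double-negative cells. Eif2ak4, which encodes the amino acid sensor GCN2, stayed between 6.60 and 7.28 FPKM in the 5 fractions. Eif2ak1, the haem-regulated kinase gene, stayed between 20.1 and 23.2 FPKM. A list of 12 genes held those for eIF2, its exchange factor eIF2B and the phosphatase that acts on eIF2alpha, and also Eif2a, the gene of the separate initiation factor eIF2A. Of these 12, 1 was 2-fold higher, against 3.81% of all rows, and none lower, against 12.2%, when double-positive were set against double-negative cells. This was Eif2s2, the beta subunit gene of eIF2, at 148 against 71.9 FPKM, a difference of 1.03, just past the limit. Ppp1r15b, which encodes the constitutive partner of the phosphatase, was at 43.95 FPKM in Zscan4-positive and 45.8 in Zscan4-negative cells, with no counterpart to the difference of its relative Ppp1r15a.

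A mixed list of bZIP partners and of other regulators under ATF4 control was mostly below its double-negative level in double-positive cells. Of 12 compared, the median was -0.43, and 4 were called lower, against 12.2% of all rows, and none higher, against 3.81%. They were Cebpb, at 7.46 against 24.2 FPKM, Atf5, at 11.4 against 32.1 FPKM, Gdf15, at 6.27 against 15.1 FPKM, and Atf3, at 0.341 against 1.73 FPKM. Cebpb and Atf5 encode bZIP factors and Gdf15 a secreted stress hormone. Between double-positive and single-positive cells Atf5 was the 1 gene called, at 11.4 against 23.9 FPKM (-1.01). Of all rows 0.346% were higher and 6.94% lower there. Between single-positive and double-negative cells it was Atf3, at 0.359 against 1.73 FPKM (-1.004), where 1.82% of rows were higher and 1.43% lower. Atf3 only just passed, and a minimum of 5 FPKM would leave it out. As list sums, fibroblast and T-lineage transcripts were also high in single-positive and double-negative cells. The share of the double-negative excess present in single-positive cells was 0.607 for Atf5 and 0.805 for Gdf15, within the range of the shared profile, and 0.448 for Cebpb, just under it. For Atf3 it was 0.0135, far below the range. The part of the shared profile in these differences was not tested. In the Zscan4 comparison none of the 12 was called, against 3.46% of all rows higher and 0.875% lower, with a median of 0.14. Nupr1, a stress-induced chromatin protein gene, was at 18.3 FPKM in Zscan4-positive against 10.4 in Zscan4-negative cells (0.76).

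Genes of amino acid supply were set beside all rows. In double-positive against double-negative cells 3.81% of all rows were called higher and 12.2% lower. For the Zscan4 comparison these were 3.46% and 0.875%. Of 14 genes for aminoacyl-tRNA synthetases and the tRNA exporter Xpot, none reached 2-fold in any comparison. All 14 were above 0 for double-positive against double-negative cells, with a median of 0.40, beside -0.02 for all rows, of which 48.5% were above 0. Under equal totals outside the shared profile 11 of 14 were above 0, with a median of 0.25. The Zscan4 comparison gave 7 above and 7 below 0. Among 10 amino acid transporters Slc7a3, a cationic amino acid transporter gene, was the 1 called higher, at 150.3 FPKM in double-positive against 74.3 in double-negative cells, and none was lower, with a median of -0.27. The difference of Slc7a3 was 1.006, just past the limit, and whether it stays there under the other scalings was not tested. Among 12 genes of amino acid and one-carbon synthesis Aldh1l2, a mitochondrial folate enzyme gene, was the 1 called lower, at 0.722 against 6.62 FPKM, with a share of 0.642 in single-positive cells. The median of these 12 was 0.12 as deposited and -0.02 under equal totals outside the shared profile. Neither list had a member past 2-fold in the Zscan4 comparison, where the proline synthesis gene Aldh18a1, at 39.5 against 21.2 FPKM, differed by 0.87 and the serine enzyme gene Shmt2, at 118.6 against 76.8 FPKM, by 0.62.

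The other arms of the unfolded protein response, run by ATF6 and XBP1, were represented by 16 genes. In Zscan4-positive cells 1 was called higher, Dnajb9, a chaperone gene of the endoplasmic reticulum, at 29.6 FPKM against 13.0 in Zscan4-negative cells. None was called lower, and of all rows 3.46% were called higher and 0.875% lower. The main chaperone gene Hspa5 (BiP) was at 173 against 184 FPKM and Xbp1 at 24.4 against 37.5 FPKM, and the median was 0.10. In double-positive cells 1 was called lower, Edem1, which acts in the disposal of misfolded proteins, at 11.9 against 26.0 FPKM in double-negative cells. None was called higher, 13 of 16 were below 0 and the median was -0.27. Of all rows 12.2% were called lower and 3.81% higher, with a median of -0.02. Of the double-negative excess of Edem1, 0.606 was present in single-positive cells, within the range of the shared profile. Hspa5 was at 155 against 220.2 FPKM there (-0.51).

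**Figure D3:**
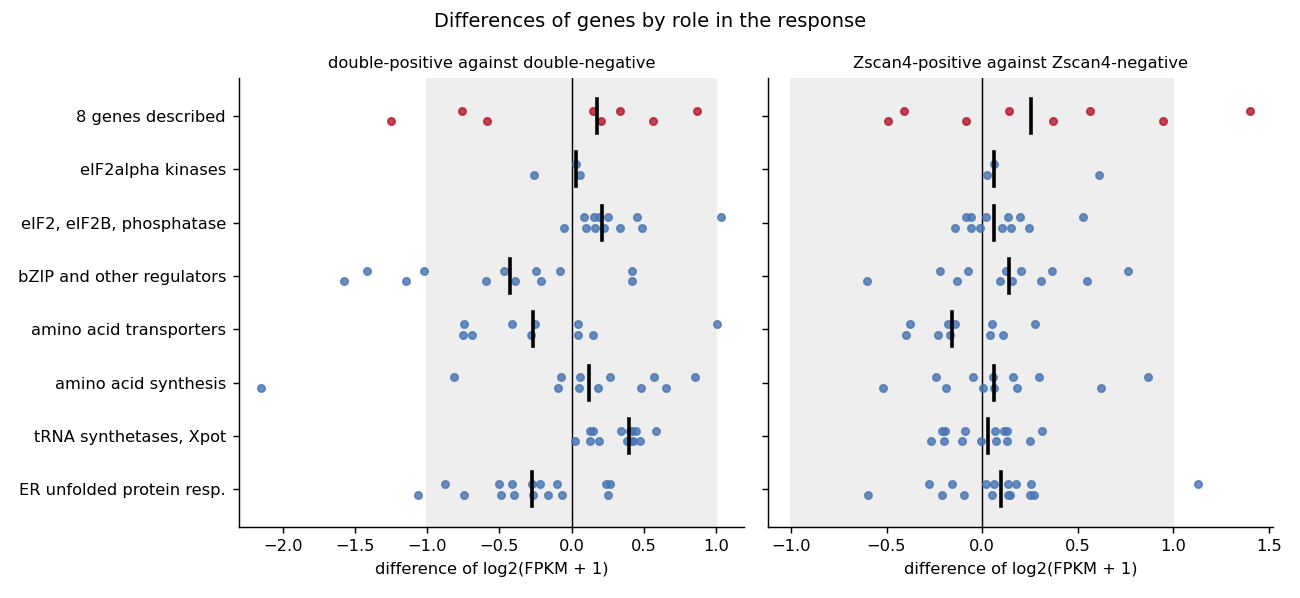
Differences of log2(FPKM + 1) (x axis) of the 8 genes (red) and of genes of 7 other roles (blue), 1 point per gene, with the list median as a black bar and the band under 2-fold in grey; left, double-positive against double-negative cells, and right, Zscan4-positive against Zscan4-negative cells, each panel with its own x range. The left panel shows the regulators with 4 genes beyond -1 and the tRNA synthetase genes all above 0, and the right panel shows Ddit4 (1.40) and Dnajb9 (1.13) beyond the band.

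Relatives of the 8 genes, 8 in all, were looked up after values had been seen. In double-positive against double-negative cells 2 were called lower and none higher, against 12.2% and 3.81% of all rows. Against single-positive cells 1 was lower and none higher, against 6.94% and 0.346%. In the Zscan4 comparison 1 was higher and none lower, against 3.46% and 0.875%. Sesn1, Sesn3, Trib2, Chac2, Atf2 and Creb3 were called in no comparison. Ddit4l, the close relative of Ddit4, which encodes REDD2, was high in the same fractions. It was at 2.42 FPKM in double-positive, 7.29 in single-positive and 10.3 in double-negative cells, and at 20.6 FPKM in Zscan4-positive and 2.79 in Zscan4-negative cells. Its differences were 2.51 for Zscan4-positive against Zscan4-negative and -1.72 for double-positive against double-negative cells, both past 2-fold and both larger than those of Ddit4. Unlike Ddit4, it was also called lower in double-positive than in single-positive cells (-1.28). Of its double-negative excess 0.618 was present in single-positive cells, within the range of the shared profile. Trib1, a relative of Trib3, was also called lower in double-positive cells, at 2.06 FPKM against 5.67 in double-negative cells (-1.12). Its share was 0.116, below that range. The other sestrin genes had another order. Sesn1 was at 5.88, 8.60 and 9.27 FPKM and Sesn3 at 10.6, 15.3 and 16.5 FPKM in double-positive, single-positive and double-negative cells, the reverse of the order of Sesn2. Their shares of the double-negative excess in single-positive cells were 0.802 for Sesn1 and 0.792 for Sesn3, within the range of the shared profile. What part the shared profile has in the differences of these relatives was not tested. In Zscan4-positive against Zscan4-negative cells Sesn1 was at 6.19 against 5.22 FPKM and Sesn3 at 12.1 against 11.5 FPKM.

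**Figure D4:**
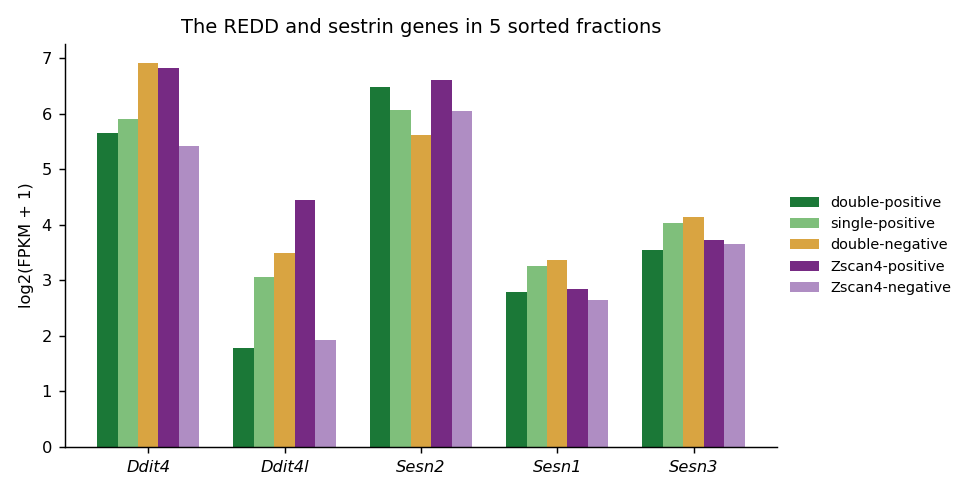
Levels as log2(FPKM + 1) (y axis, from 0) of the genes for the REDD proteins (Ddit4, Ddit4l) and the sestrins (Sesn2, Sesn1, Sesn3) in the 5 fractions, 1 merged value per bar. Ddit4 and Ddit4l are both high in double-negative and Zscan4-positive cells, while Sesn2 is lowest in double-negative cells and Sesn1 and Sesn3 are highest there.

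For the 3 genes whose range over the fractions was at least 1 (log2), the protein-coding genes with the most similar pattern were found among 9219 rows, by Euclidean distance between log2(FPKM + 1) profiles centred on their mean over the 5 fractions. Nearest to Ddit4 were Ssh2, Mef2d and Pip4k2a, at distances of 0.507 to 0.528. Mef2d, a transcription factor gene, was at 8.74 FPKM in double-positive, 13.0 in single-positive and 18.4 in double-negative cells, and at 26.7 in Zscan4-positive and 9.34 in Zscan4-negative cells. By this distance, closer matches existed for Chac1, namely Slc22a17, Ccdc136 and Fignl2 at 0.106 to 0.216, and for Asns, namely Pde9a, Prss50 and Ndrg1 at 0.238 to 0.285. The distance also depends on how wide the range of a gene is, and that of Ddit4 was the widest. Pearson correlations were 0.925 to 0.962 for Ddit4, 0.971 to 0.994 for Chac1 and 0.953 to 0.966 for Asns. With 5 points that share 2 lines and 5 merged columns, such likeness describes these values only.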

How the data were processed

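RNA from 2 libraries of each of the 5 sorted fractions was sequenced. Extraction used a Qiagen kit and library construction a NEBNext Ultra kit, per the labels' protocols. The submitters' processing notes name bcl2fastq 1.8.4, TopHat2 2.0.14, Cufflinks, Cuffdiff 2.2.1 and the build mm10. How replicates were merged, which annotation was used and how libraries were normalized is not given in the sources used here. Although titled as counts, the deposited table holds FPKM values from the authors, 1 for each row and fraction. FPKM keeps no read depth, so no counting interval can be given.

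A row was compared if any fraction had at least 1 FPKM, by the difference of log2(FPKM + 1) and a 2-fold size rule. No test was possible on 1 value per fraction, and neither the fit with a column per library nor leaving out a library, both planned for that case, could be run. Genes of other lists are named where they passed 2-fold and reached 5 FPKM, up to 4 per list and comparison, and every kinase gene is named. Lum, Dcn, Fn1, Cd2, Cd4, Cd8a, Cd8b1, Pou5f1, Tdgf1 and Utf1 were named outside this rule, after their values were seen. So were Mars, Tulp2, Atf3, Nupr1, Ppp1r15b, Aldh18a1, Shmt2, Hspa5, Xbp1, the relatives of the 8 genes and the genes of lists added later. The 8 genes and all lists were chosen with earlier results of these data known. Steps were tested on simulated data. Computations used Python 3.11.15, pandas 2.3.3, numpy 2.4.6 and matplotlib 3.10.9.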

Additional observations from a re-analysis of the deposited data

How the results depend on the processing

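Of 256 member differences recomputed under 8 alternatives, 1 changed sign, that of Atf4 given with its comparison. By construction, many of the 256 could not change. Dropping the filter, a minimum of 5 FPKM, summing rows of 1 symbol and the 1.5-fold rule leave each member difference as it was. Only the smaller pseudocount and the scalings could move a difference. Under these, Ddit4 stayed past 2-fold for Zscan4-positive against Zscan4-negative cells (1.35 to 1.44). It also did so for double-positive against double-negative cells (-1.26 to -1.39). For single-positive against double-negative cells the number of the 8 members past the limit was 1 with a pseudocount of 0.1 FPKM, under equal totals, under median-ratio scaling and under equal totals outside the shared profile. The 1.5-fold rule gave 2 members there, 4 for double-positive against double-negative and 2 for the Zscan4 comparison. The members' median for double-positive against double-negative cells was 0.058 under equal totals and 0.035 outside the shared profile.

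Counts of all rows depended on the settings. A pseudocount of 0.1 FPKM gave 428 higher and 469 lower for single-positive against double-negative, 153 higher and 1460 lower for double-positive against single-positive, and 835 higher and 280 lower for the Zscan4 comparison. A minimum of 5 FPKM gave 612 lower for double-positive against single-positive, 972 lower for double-positive against double-negative and 303 higher for the Zscan4 comparison. The 1.5-fold rule gave 693 higher and 747 lower, 228 and 1692, 1349 and 2784, and 1035 and 488 for single-positive against double-negative, double-positive against single-positive, double-positive against double-negative and Zscan4-positive against Zscan4-negative. By construction, the smaller pseudocount and the 1.5-fold rule admit lower genes or smaller differences, and the higher minimum removes rows.

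No paired analysis was possible because each fraction has 1 merged column, so the replicate numbers of the labels reach no value. Unknown depth limits the firmness of every level, most of all for genes at a few FPKM.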

Other observations

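Inputs other than ATF4 that are known to raise Ddit4 were looked up after its values had been seen, and are given as values. Of 11 hypoxia response genes compared, 1 was past 2-fold in the Zscan4 comparison, Pdk1, at 42.7 FPKM in Zscan4-positive against 90.8 in Zscan4-negative cells. None was past 2-fold in double-positive against double-negative cells. Egln3 was close to the limit there, at 16.6 against 33.2 FPKM (-0.96), with 7 of the 11 below 0 and 4 above. Of all rows 3.46% were higher and 0.875% lower in the former comparison, and 3.81% and 12.2% in the latter. Of 7 glucocorticoid response genes none was past 2-fold in the Zscan4 comparison, where Klf9, at 94.7 against 49.6 FPKM, differed by 0.92. In double-positive against double-negative cells Sgk1 was higher, at 153 against 74.0 FPKM, a difference of 1.04, just past the limit. Tsc22d3 and Zbtb16 were lower, at 2.63 against 11.1 and at 0.0676 against 1.46 FPKM. Zbtb16 belongs to the shared profile. Of the double-negative excess of Tsc22d3, 0.542 was present in single-positive cells, within the range of that profile. The part of the shared profile in these differences was not tested.

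Of 9 other mTORC1 regulators none was past 2-fold in the Zscan4 comparison, where 3.46% of all rows were higher and 0.875% lower. Tsc2, whose product is part of the complex through which REDD1 acts, was at 35.7 FPKM in Zscan4-positive against 65.7 in Zscan4-negative cells, a difference of -0.86. Castor1, the gene of an arginine sensor upstream of mTORC1 (listed as Gatsl3), was the 1 of the 9 past 2-fold in the Esrrb/Tbx3 comparisons. It was at 56.1 FPKM in double-positive, 42.7 in single-positive and 20.7 in double-negative cells, a difference of 1.39 for double-positive and 1.009 for single-positive against double-negative cells. Of all rows 3.81% were higher and 12.2% lower in the former comparison, and 1.82% and 1.43% in the latter. For double-positive against single-positive cells 0.346% were higher and 6.94% lower. The 6 mitochondrial chaperone and protease genes held none past 2-fold in the 4 comparisons, with medians of 0.36 for double-positive against double-negative and -0.02 for Zscan4-positive against Zscan4-negative cells.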
